A study of Mus musculus with 12 samples.

Results

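The genes described here encode the proteins of the mitochondrial ribosome, in RNA sequencing of PYMT-R221A, a line of mammary tumour cells from the mouse. Members were the rows of the count table whose symbol was Mrpl or Mrps followed by a number and, in some, a letter from a to c, with at least 10 counts in 3 or more libraries. This gave 78 of the 55335 genes in the table, 49 named as large subunit proteins (Mrpl) and 29 as small subunit proteins (Mrps). All 78 passed the filter on low counts of the test, which kept 14935 genes. The lowest count of a member in any library was 82, and the median over members of that lowest count was 867.5.

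The 12 libraries fell into 4 groups of 3: cells given KCC-07 at 40 µM, control cells, cells transfected with siRNA against Mbd2 (siMBD2), and cells transfected with scramble siRNA. KCC-07 is a small molecule placed by the series title on the MBD2 pathway, and MBD2 is a protein that binds methylated DNA. The labels name the replicates as biological and give no vehicle and no duration. All libraries come from a single cell line. Levels are given as CPM, the count of a gene scaled to a common library total that was adjusted by TMM. Mbd2 had 35.7, 34.7 and 30.6 CPM in siMBD2 cells, against 75.8, 83.2 and 72.5 CPM in scramble cells.

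Mitochondrial ribosomes translate the few proteins encoded by the mitochondrial genome, all of them subunits of the respiratory chain or of ATP synthase. Their rRNAs come from the mitochondrial genome, while every one of their proteins is encoded in the nucleus, made in the cytosol and imported. The large subunit holds the peptidyl transferase centre and the exit tunnel, and the small subunit decodes the mRNA. Compared with bacterial ribosomes, those of mammals have lost rRNA and gained proteins with no bacterial counterpart. The symbol does not always give the place in the ribosome. Mrps30 and Mrps18a are known as large subunit proteins, and Mrps36 is known as a subunit of the 2-oxoglutarate dehydrogenase complex of the citric acid cycle rather than of the ribosome. By known structure the members thus comprised 51 large subunit genes, 26 small subunit genes and Mrps36.

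Library totals ran from 25831299 to 33956792 counts. The replicate 3 library had the highest share of mitochondrially encoded transcripts in each group, with 3.90% in KCC-07 cells, 2.81% in control cells, 2.70% in siMBD2 cells and 3.01% in scramble cells, while the other 8 libraries held 1.45% to 2.32%. Of the epithelial markers, Krt8 averaged 504 CPM and Epcam 257 CPM over all libraries. Ptprc, which marks leukocytes, and Cdh5, which marks endothelium, averaged 0.02 and 0 CPM. The highest of the immune and endothelial markers were Cd68 with 1.72 CPM and Pecam1 with 2.45 CPM. The fibroblast marker Pdgfra was present at 123 CPM, while Thy1 was at 0 in all libraries.

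The members were transcribed at moderate and unequal levels. Their mean over all libraries ran from 5.46 to 200.8 CPM, with a median of 39.5. Levels between genes can be compared only per length. Per kilobase of all annotated exons, Mrpl12, a protein of the stalk to which translation factors bind, was highest with 131.1 CPM per kb. Next came Mrps7, a protein of the head of the small subunit, with 74.0 CPM per kb and Mrpl38, a protein found only in mitochondrial ribosomes, with 65.7 CPM per kb. The lowest were Mrps10 with 3.36, Mrpl48 with 2.88 and Mrpl23 with 1.12 CPM per kb. That low end depended on the length used. Per kilobase of the longest principal transcript, Mrps10 had 26.7 and Mrpl23 had 7.89, and the lowest were Mrps25 with 6.22, Mrpl48 with 5.48 and Mrpl57 with 5.24 CPM per kb, while Mrpl12 stayed highest with 152.6 CPM per kb. Mrpl48 was among the lowest 3 by either length. The principal transcript was tried after the values had been seen.

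The members lay on 17 chromosomes (GRCm38.p6), with 11 on chromosome 11 and 8 on chromosome 17. A protein-coding gene on the opposite strand began within 1000 bases upstream of the start for 18 of the 78 members, or 23.1%. Of all protein-coding genes found in the annotation, 6.83% had such a neighbour. The share over the tested genes alone was not computed. Exons of 28 members overlapped an exon of a gene on the other strand, and 3 members (Mrpl22, Mrpl27 and Mrps21) had a near-identical copy elsewhere. The strand setting of the counting was not given in the sources used here, so the levels of these genes are uncertain. Of the members named here, Mrpl12, Mrpl18, Mrpl27, Mrpl43, Mrpl48, Mrpl53, Mrpl58, Mrps7, Mrps18b, Mrps25, Mrps27, Mrps30 and Mrps34 have such an overlap. So do Dap3, Esrra, Gadd45gip1, Hspd1, Iars2, Krt8, mt-Co1, mt-Nd6, Pdgfra and Ybey among the other genes.

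Promoter letters are shown for the 5 members that fell with KCC-07, described below, and for Mrpl17, whose window combined the letters of 2 factors known to act on nuclear genes for mitochondrial proteins. Each line gives the 250 bases before an annotated start, 5′ to 3′ on the gene's strand, from RefSeq (GRCm38.p6), and capitals mark the matches. Mrpl42 was read from chr10:95501950-95502199 on the minus strand and Mrpl51 from chr6:125191950-125192199 on the plus strand. Mrpl11 was read from chr19:4962056-4962305 (plus), Mrpl48 from chr7:100608302-100608551 (minus, 1 of its 4 annotated windows), Mrpl41 from chr2:24975099-24975348 (minus) and Mrpl17 from chr7:105811088-105811337 (minus).
Mrpl42: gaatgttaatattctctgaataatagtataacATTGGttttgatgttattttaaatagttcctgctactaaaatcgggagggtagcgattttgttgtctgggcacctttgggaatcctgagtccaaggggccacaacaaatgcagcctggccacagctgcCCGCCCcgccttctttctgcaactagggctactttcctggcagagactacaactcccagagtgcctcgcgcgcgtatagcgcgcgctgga
Mrpl51: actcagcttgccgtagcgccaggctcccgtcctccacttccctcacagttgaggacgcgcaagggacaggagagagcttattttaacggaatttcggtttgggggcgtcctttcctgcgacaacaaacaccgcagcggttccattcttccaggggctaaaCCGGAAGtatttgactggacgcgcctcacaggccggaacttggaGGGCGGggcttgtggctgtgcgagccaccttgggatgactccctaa
Mrpl11: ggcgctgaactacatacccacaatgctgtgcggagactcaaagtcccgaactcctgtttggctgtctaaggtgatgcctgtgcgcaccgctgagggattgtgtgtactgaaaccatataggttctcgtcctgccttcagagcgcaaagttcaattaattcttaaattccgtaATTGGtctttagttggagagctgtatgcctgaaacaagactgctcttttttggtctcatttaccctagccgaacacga
Mrpl48: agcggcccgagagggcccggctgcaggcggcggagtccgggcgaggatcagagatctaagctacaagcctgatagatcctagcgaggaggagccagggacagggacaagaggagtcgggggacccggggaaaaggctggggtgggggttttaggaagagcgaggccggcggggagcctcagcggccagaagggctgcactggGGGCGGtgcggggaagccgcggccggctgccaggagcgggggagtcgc
Mrpl41: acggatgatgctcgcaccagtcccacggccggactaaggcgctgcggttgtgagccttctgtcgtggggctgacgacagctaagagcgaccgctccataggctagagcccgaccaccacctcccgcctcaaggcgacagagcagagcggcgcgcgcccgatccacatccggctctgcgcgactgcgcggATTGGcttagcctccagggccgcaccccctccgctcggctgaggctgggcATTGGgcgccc
Mrpl17: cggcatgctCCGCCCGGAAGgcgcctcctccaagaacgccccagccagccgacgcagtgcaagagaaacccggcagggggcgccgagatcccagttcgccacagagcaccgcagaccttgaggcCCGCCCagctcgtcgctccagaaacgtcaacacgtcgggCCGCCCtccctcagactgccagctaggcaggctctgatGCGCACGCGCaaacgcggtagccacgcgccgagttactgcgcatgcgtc

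The motifs searched, on both strands of the windows from 250 bases before to 50 after the start, were NRF1 (GCGC, any base, then TGCGC), ETS (CCGGAAG), YY1 (AAGATGGCG), SP (GGGCGG) and CCAAT. NRF1, the ETS factor GABP and YY1 are known regulators of nuclear genes for mitochondrial proteins. A window was found for 69 members. NRF1 letters stood in 18.8% of them, against 11.3% of the tested genes with a window and 5.19% of all genes with one. The ETS letters stood in 37.7% of members, against 19.8% of tested genes and 9.93% of all. YY1 letters stood in 11.6%, against 3.49% and 1.64%. The SP letters were in 49.3% of members, against 68.4% of tested genes and 38.2% of all, and CCAAT in 39.1%, against 43.6% and 41.1%. In all, 41 of the 69 held NRF1, ETS or YY1 letters, and 6 held at least 2 of these 3 motifs. The 250 bases of Mrpl51 held ETS and SP letters, Mrpl17 held NRF1, ETS and SP, Mrpl42 CCAAT and SP, Mrpl48 SP, and Mrpl11 and Mrpl41 CCAAT alone. Over the full windows, to 50 bases after the start, Mrpl42 also held YY1 letters. Of the 3 full windows of Mrpl48 not shown, 2 held SP letters and 1 held ETS letters. Matches to 2 different motifs overlapped in 2 of the 75 member windows, as ETS and SP do in Mrpl17. These matches describe letters and not bound sites.

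With KCC-07, nearly all mitochondrial ribosomal protein genes stood below their level in control cells by a small amount. Of the 78, 75 had a log2 fold change below 0, with a median of −0.26, or 0.83-fold, against a median of 0.02 over all tested genes. The middle 50% of the members lay between −0.37 and −0.16, and the whole range was −0.58 to 0.06. The large and small subunit genes moved by like amounts, with medians of −0.27 and −0.25. In bulk RNA, fewer cells of a type and less RNA per cell cannot be told apart.

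Counted gene by gene (edgeR's quasi-likelihood test, Benjamini-Hochberg adjusted p under 0.05), 5 members fell with KCC-07 and 0 rose. In the background, 2.08% of tested genes fell and 3.58% rose. DESeq2 gave 10 falls, against 5.24% of tested genes. At an unadjusted p under 0.05 there were 37 members, against 25.1% of tested genes. All 5 that fell belong to the large subunit. With the replicate number as a block, 35 members fell, 24 Mrpl and 11 Mrps, including those 5, and 0 rose, against 9% of all tested genes that fell and 12.8% that rose. When only these 6 libraries were fitted the count was 0, against 0% of tested genes without the block and 0.564% with it. It was 2 without control replicate 1 (1.1% of tested genes) and 2 without control replicate 2 (0.786%). It was 3 without KCC-07 replicate 1 (1.22%) or 3 (1.82%), and 29 without control replicate 3 (6.07%).

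**Figure D1:**
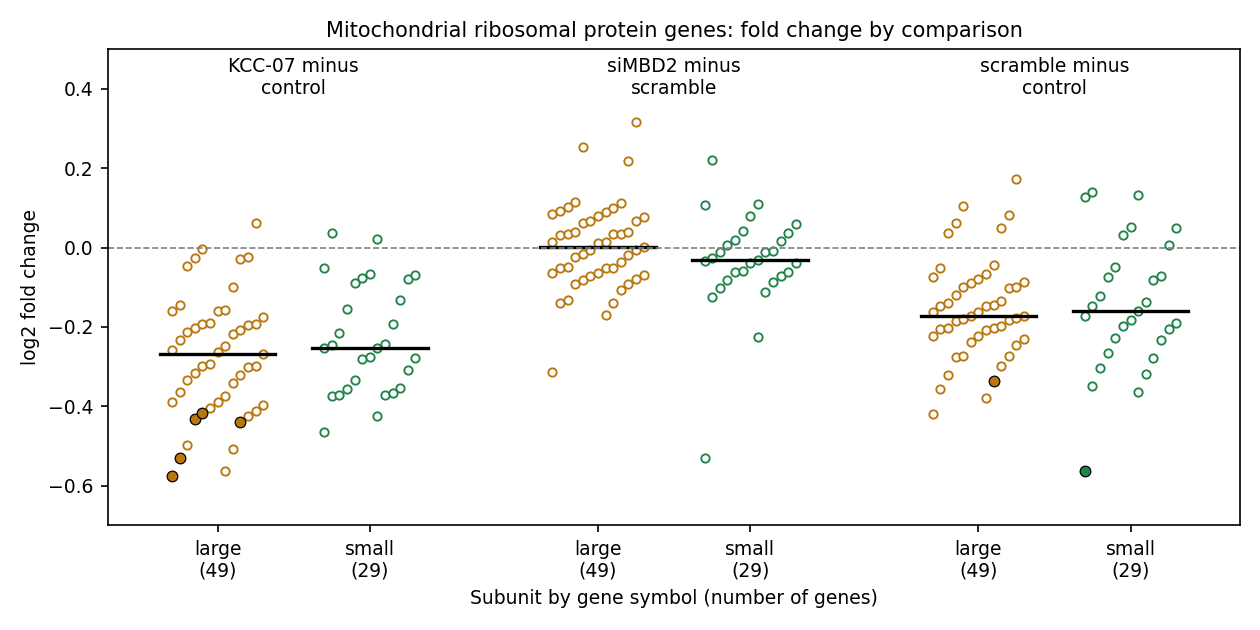
Log2 fold change of each member (vertical axis) by subunit as the symbol gives it, in 3 comparisons; filled points passed an adjusted p of 0.05, open points did not, and bars are medians. The members centre on −0.27 (large) and −0.25 (small) in KCC-07 minus control, near 0 in siMBD2 minus scramble, and on −0.17 (large) and −0.16 (small) in scramble minus control, which uses the same control libraries as the first comparison.

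Mrpl42, a protein of the large subunit with no bacterial counterpart (ENSMUSG00000062981, chromosome 10, 95480805 to 95501940), had 37.0, 35.5 and 38.6 CPM in KCC-07 cells, against 51.1, 48.5 and 51.0 CPM in control cells. The groups did not overlap and each varied little. It fell by 0.44 on the log2 scale (SE 0.078, edgeR adjusted p = 0.0109), to 0.74-fold. In siMBD2 cells it had 39.9, 42.2 and 43.0 CPM, against 44.2, 46.3 and 46.6 CPM in scramble cells, so the KCC-07 libraries were the lowest 3 of the 12.

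Mrpl51, likewise a mitochondria-specific large subunit protein (ENSMUSG00000030335, chromosome 6, 125191801 to 125196269), had 64.3, 64.6 and 57.7 CPM in KCC-07 cells, against 87.3, 82.6 and 79.2 CPM in control cells. All 3 treated libraries lay below all others of the series, the lowest of which was scramble replicate 2 with 70.6 CPM. The log2 fold change was −0.42 (SE 0.079, edgeR adjusted p = 0.0139). The calls of Mrpl42 and Mrpl51 held without any single library and ended when only these 6 libraries were fitted.

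Mrpl11, the counterpart of the bacterial stalk-base protein (ENSMUSG00000024902, chromosome 19, 4962147 to 4966999), had 21.6, 21.4 and 17.9 CPM in KCC-07 cells, against 32.4, 30.1 and 25.6 CPM in control cells. In each group replicate 3 was the lowest, and the groups did not overlap. It fell by 0.53 on the log2 scale (SE 0.115, edgeR adjusted p = 0.0229). Without control replicate 1 or control replicate 2 its adjusted p was 0.0700 or 0.0686, in a range of 0.000682 to 0.211 over all alternatives. The call also ended when only these 6 libraries were fitted, which gave the 0.211.

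Mrpl48, a large subunit protein without a bacterial counterpart (ENSMUSG00000030706, chromosome 7, 100545751 to 100608301), had 19.1, 21.5 and 14.5 CPM in KCC-07 cells, against 30.8, 27.7 and 23.8 CPM in control cells. It had the most negative fold change of all members, −0.58 on the log2 scale (SE 0.146, edgeR adjusted p = 0.0428). Its exons overlap those of Rab6a on the opposite strand. KCC-07 replicate 3 was its lowest library of the 12. The call ended without KCC-07 replicate 1 or 3 and without control replicate 1 or 2. It also ended when only these 6 libraries were fitted (edgeR adjusted p = 0.250, or 0.0619 with the block).

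Mrpl41, a mitochondria-specific protein of the large subunit (ENSMUSG00000036850, chromosome 2, 24974117 to 24975098), had 15.1, 17.0 and 15.2 CPM in KCC-07 cells, against 23.6, 21.2 and 19.1 CPM in control cells. The log2 fold change was −0.43 (SE 0.114, edgeR adjusted p = 0.0484), just inside the threshold. The call ended without any one KCC-07 library, without control replicate 1 or 2, and with no filter on low counts. It also ended when only these 6 libraries were fitted (edgeR adjusted p = 0.269, or 0.118 with the block). In siMBD2 cells Mrpl41 had 16.3, 14.8 and 16.8 CPM, against 18.8, 19.7 and 21.1 CPM in scramble cells, a difference of −0.31 (SE 0.114) that did not pass the test (edgeR adjusted p = 0.773).

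**Figure D2:**
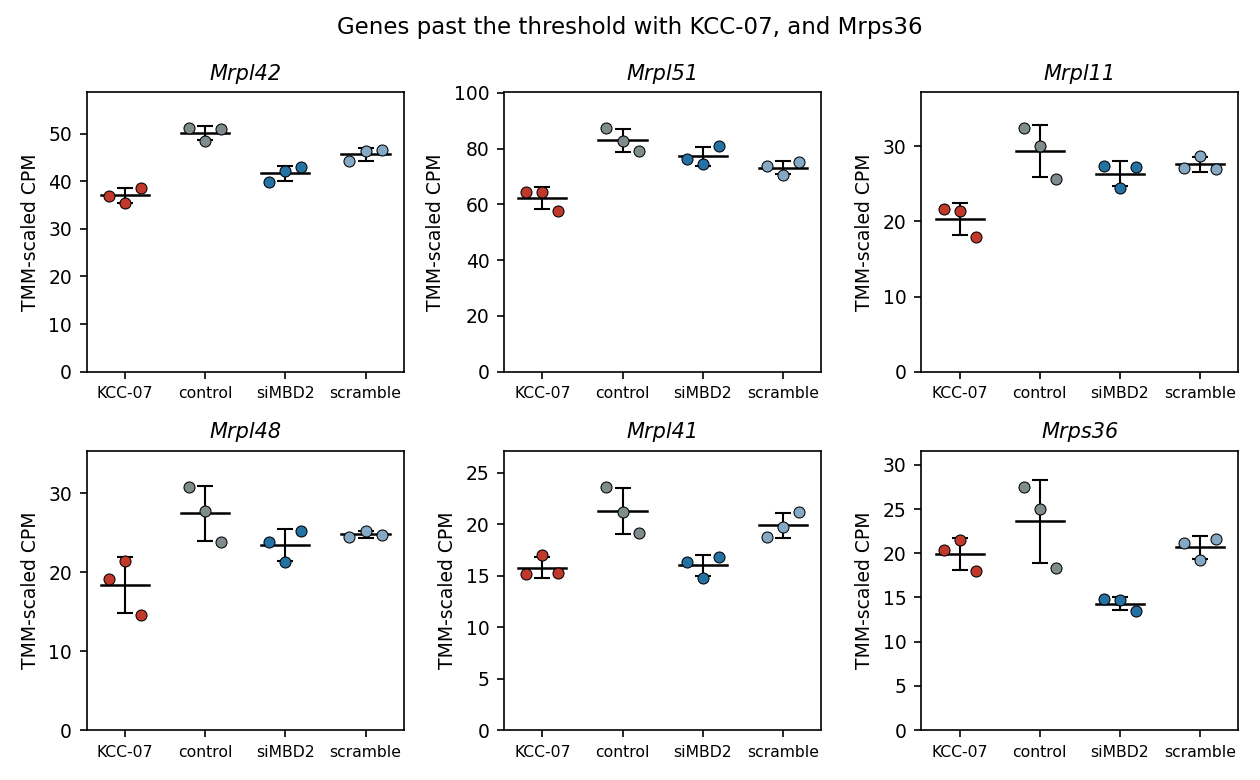
Level (TMM-scaled CPM) of the 5 members that fell with KCC-07 and of Mrps36 in every library, by group; points are libraries in replicate order, horizontal lines means and error bars SD (n = 3). For Mrpl42 the KCC-07 libraries lie at 35.5 to 38.6 and the control libraries at 48.5 to 51.1, and for Mrps36 the lowest group is siMBD2, at 13.4 to 14.8.

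Members just outside the threshold were also lower with KCC-07. Mrpl16, Mrpl58 and Mrpl52 had adjusted p-values of 0.0522, 0.0523 and 0.0554 in edgeR's test. Mrpl58, a peptidyl-tRNA hydrolase built into the large subunit that can release stalled peptides, had 60.5, 66.4 and 46.5 CPM in KCC-07 cells, against 88.2, 88.4 and 68.2 CPM in control cells. Mrpl52, a mitochondria-specific protein, had 14.4, 16.9 and 13.3 CPM in KCC-07 cells, against 25.4, 23.6 and 17.0 CPM in control cells. Its KCC-07 replicate 2 and control replicate 3 differed by little. Mrpl54, another mitochondria-specific protein, had 14.2, 15.6 and 9.07 CPM with KCC-07, against 21.0, 19.5 and 14.8 CPM in control cells, and its groups overlapped. Mrpl16, Mrpl52, Mrpl54 and Mrpl58 fell with the replicate block, with adjusted p-values of 0.00318 to 0.0120 in edgeR's test.

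Of the genes with an Mrps symbol, those that fell only with the block were Mrps2, Mrps7, Mrps14, Mrps18a, Mrps18c, Mrps21, Mrps22, Mrps27, Mrps28, Mrps31 and Mrps34, which were read off after the values were seen. Mrps7 had 134.8, 150.3 and 123.7 CPM in KCC-07 cells, against 178.6, 169.5 and 138.8 CPM in control cells. Each KCC-07 library lay below the control library of its number, although KCC-07 replicate 2 and control replicate 3 crossed. Mrps28, which had the most negative fold change of the genes with an Mrps symbol and has a bacterial counterpart, had 16.5, 20.3 and 13.98 CPM in KCC-07 cells, against 27.0, 25.8 and 17.3 CPM in control cells. In the blocked fit it fell by 0.46 on the log2 scale (SE 0.099, edgeR adjusted p = 0.0159), and over all 35 members that fell there the log2 fold change ran from −0.59 to −0.25. Mrps2, which has a bacterial counterpart, had 46.2, 42.6 and 38.4 CPM in KCC-07 cells, against 56.7, 48.8 and 48.4 CPM in control cells, with no overlap.

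The 3 members above 0 did not pass the test. Mrpl43, a mitochondria-specific large subunit protein, had 40.8, 42.8 and 44.1 CPM in KCC-07 cells, against 44.7, 39.0 and 38.7 CPM in control cells. Mrps12, known in bacteria for its part in decoding accuracy, had 29.1, 35.4 and 16.2 CPM in KCC-07 cells, against 31.7, 27.4 and 19.6 CPM in control cells, with replicate 3 low in both groups. Mrps10, a protein of the small subunit head, had 23.5, 24.8 and 34.6 CPM in KCC-07 cells, against 29.3, 28.5 and 23.9 CPM in control cells. Their log2 fold changes were 0.06, 0.04 and 0.02, and that of Mrps12 turned to −0.00498 with the replicate block.

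Proteins with bacterial counterparts and those particular to mitochondria gave like values. Among large subunit proteins by structure, the 30 with a bacterial counterpart had a median log2 fold change of −0.25 with 1 fall, and the 21 others −0.30 with 4 falls. Among small subunit proteins, the 16 with a bacterial counterpart had a median of −0.26 and the 10 others −0.22, with 0 falls in either. With the replicate block, 13 and 12 of those large subunit genes fell, and 6 and 4 of the small subunit genes, against 9% of tested genes. Whether the subunits or classes differ in their response was not tested.

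The paralogs of Mrps18 occupy separate places, with Mrps18a in the large subunit and Mrps18b and Mrps18c in the small subunit. Mrps18a had 32.5, 33.0 and 32.9 CPM in KCC-07 cells, against 41.8, 43.5 and 36.5 CPM in control cells. Mrps18c had 30.2, 32.6 and 27.1 CPM in KCC-07 cells, against 43.8, 39.1 and 33.4 CPM in control cells. In both the groups did not overlap, and neither passed the test (edgeR adjusted p = 0.0702 and 0.109), while with the block both did (0.0263 and 0.0153). Mrps18b was close to even, with 47.9, 45.9 and 41.6 CPM in KCC-07 cells and 52.3, 50.9 and 38.8 CPM in control cells. Mrps30 had 41.2, 42.3 and 43.9 CPM in KCC-07 cells, against 59.3, 49.9 and 42.6 CPM in control cells, where replicate 3 lay within the KCC-07 values.

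The summed level of the members overlapped between the groups because of control replicate 3. Over both subunits the sum was 3171.1, 3324.3 and 2875.7 CPM in KCC-07 cells, against 4092.1, 3799.2 and 3171.2 CPM in control cells. The means were 3124 ± 228 CPM with KCC-07 and 3688 ± 470 CPM in control cells (SD, n = 3 each). In siMBD2 cells the sum was 3286.5, 3299.0 and 3383.2 CPM, against 3371.0, 3342.4 and 3366.4 CPM in scramble cells. Control replicates 1 and 2 were thus the highest of all 12 libraries and KCC-07 replicate 3 the lowest.

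**Figure D3:**
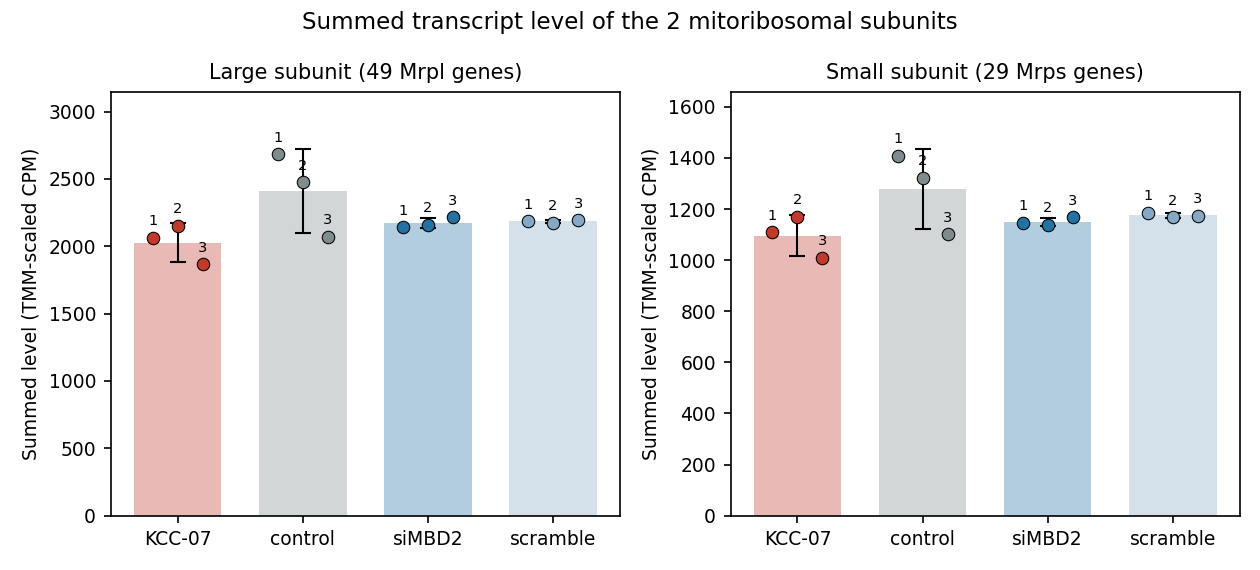
Summed level (TMM-scaled CPM) of the large subunit genes (left) and small subunit genes (right) by group; bars are means, error bars SD (n = 3), and numbered points are libraries. Control replicates 1 and 2 stand highest in both panels, control replicate 3 lies at 2069 and 1102 CPM among the KCC-07 libraries, and the siRNA groups vary least.

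The balance of the subunits changed little. The small subunit sum divided by the large subunit sum was 0.538, 0.543 and 0.541 in KCC-07 cells, against 0.524, 0.534 and 0.533 in control cells, so the ratio did not overlap between these groups although it differed by about 0.01. In siMBD2 cells the ratio averaged 0.530 ± 0.005, against 0.538 ± 0.003 in scramble cells (SD, n = 3 each). These ratios go by symbol. By structure the ratio was 0.475, 0.482 and 0.470 in KCC-07 cells, against 0.459, 0.469 and 0.468 in control cells, and averaged 0.466 ± 0.007 in siMBD2 cells, against 0.470 ± 0.004 in scramble cells, a gap smaller than the spread. With 3 and 3 libraries the smallest p of exact permutation is 0.1, and it was not applied to these sums.

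Single genes followed the same order of libraries. Control replicate 1 was the highest of the 12 libraries for 56 of the 78 members, and KCC-07 replicate 3 was the lowest for 41. Within groups, the median over members of the SD between libraries was 0.142 on the log2 CPM scale in KCC-07 cells and 0.227 in control cells, against 0.0723 in siMBD2 cells and 0.0654 in scramble cells. By replicate pair, the median difference of KCC-07 minus control was −0.39, −0.20 and −0.17 for replicates 1, 2 and 3, with 77, 74 and 54 of the 78 members below 0. The direction of the median was thus the same in each pair. In 22 members every KCC-07 library lay below every control library, or 28.2%, against 10.6% of all tested genes, and in 0 members above, against 12.3%.

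**Figure D4:**
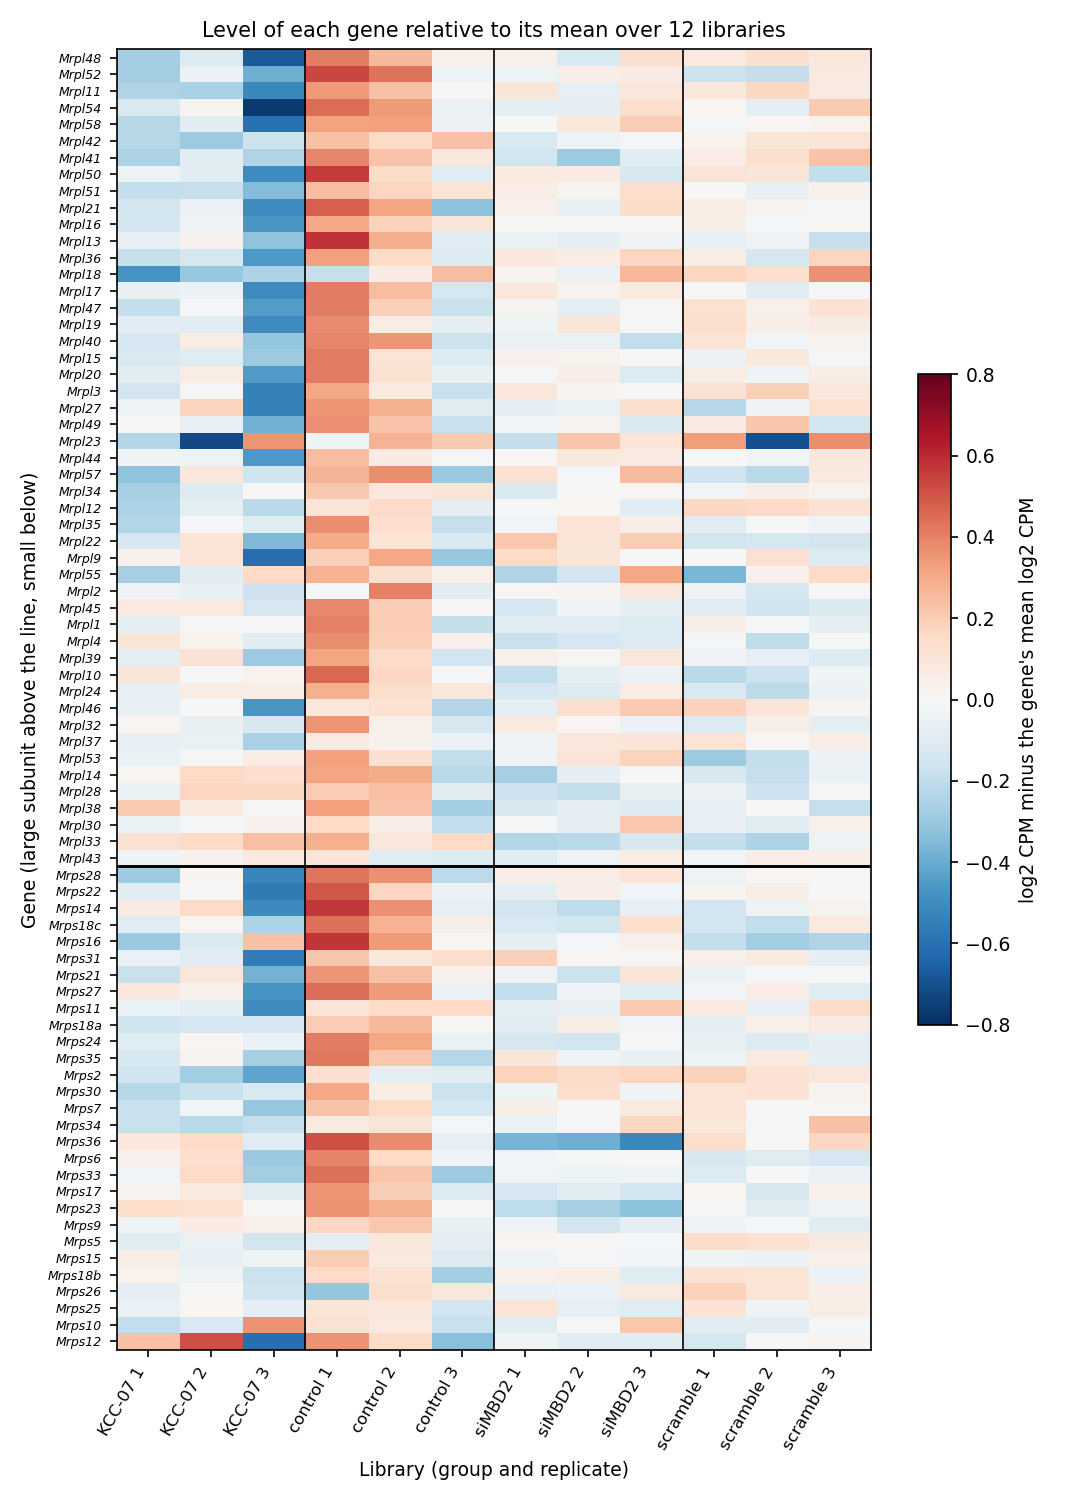
Level of each of the 78 members (rows, large subunit above the black line, ordered by the fold change of KCC-07 minus control) in each library (columns), as log2 CPM minus the gene's mean over 12 libraries; red is above and blue below that mean, and the colours end at −0.8 and 0.8. The red columns of control replicates 1 and 2 and the blue column of KCC-07 replicate 3 span both subunits, and the siMBD2 and scramble columns are pale apart from single rows such as Mrps36 and Mrpl23.

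Some values moved with this comparison beside the members. The 7 fibroblast markers, of which 4 passed the filter, summed to 105.8 to 162.8 CPM in KCC-07 cells, against 190.2 to 221.5 CPM in control cells, while 1 of those 4, Col1a2, lay above 0 at levels under 1 CPM. The 7 epithelial markers summed to 1647 to 1907 CPM in KCC-07 cells and 1572 to 1740 CPM in control cells, which overlapped. Among them 3 rose, Cdh1, Epcam and Krt18, by 0.39, 0.45 and 0.43 on the log2 scale (edgeR adjusted p = 0.0435, 0.0338 and 0.0479). They were named for the smallest adjusted p of the list, and the directions of its other markers are not given here. Cdh1 also rose in scramble minus control, by 0.53 (edgeR adjusted p = 0.0102). The 6 immune markers, of which only Cd68 passed the filter, summed to 1.49 to 7.70 CPM in KCC-07 cells, against 0.75 to 0.97 CPM in control cells. Adgre1 was at 0 in all libraries. The 4 endothelial markers summed to 1.24 to 6.72 CPM in KCC-07 cells and 2.82 to 4.41 CPM in control cells, which overlapped. The part of these, of the mitochondrial share and of replicate 3 in the result was not tested. Without replicate 3 of both groups, tried after the values had been seen, 29 members fell, against 7.4% of tested genes. Across the 78 members the log2 fold change had a Spearman correlation of 0.01 with exon length, 0.15 with GC content and 0.17 with mean level, as a description over genes of the same libraries. With trends on these 3 removed over all genes in the blocked fit, the median was −0.19.

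Other nuclear genes for the same machinery were lower with KCC-07 to unequal degrees. Of 5 subunits with other symbols, all 5 lay below 0 and 1 fell, Gadd45gip1 (also called CRIF1), which sits near the exit tunnel of the large subunit. It had 36.4, 37.3 and 27.7 CPM in KCC-07 cells, against 45.2, 52.0 and 42.9 CPM in control cells (log2 fold change −0.46, SE 0.119, edgeR adjusted p = 0.0447). Dap3, a GTP-binding protein of the small subunit, was close to even, with a log2 fold change of −0.03.

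Of 25 assembly and rRNA modification factors 1 fell and 16 lay below 0, with a median of −0.12. That was Ybey, an endoribonuclease involved in rRNA processing, with 1.54, 1.11 and 0.85 CPM in KCC-07 cells, against 3.19, 2.57 and 2.46 CPM in control cells (log2 fold change −1.23, SE 0.305, edgeR adjusted p = 0.0400), low levels in both groups, and exons overlapped on the other strand. Of 15 translation factors 1 fell, Tufm, the elongation factor that brings tRNAs to the ribosome, with 96.0, 97.5 and 80.8 CPM in KCC-07 cells, against 117.1, 128.1 and 110.4 CPM in control cells (log2 fold change −0.37, edgeR adjusted p = 0.0383). Of 17 mitochondrial aminoacyl-tRNA synthetases, which charge tRNAs, 2 fell, among them Iars2 (log2 fold change −0.27, edgeR adjusted p = 0.0399). Of 13 genes for mitochondrial DNA replication, transcription and RNA processing, 0 passed in edgeR's test, DESeq2 gave 1, and with the block 3 fell. At an unadjusted p under 0.05 there were 2, against 25.1% of tested genes. With the block the counts of falls were 2 of the other subunits, 3 assembly factors, 3 translation factors and 4 synthetases, with 1 synthetase, Mars2, rising. Over all tested genes 9% fell and 12.8% rose with the block, and 2.08% fell without it.

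The direction of the mitochondrial genome's own transcripts rested on KCC-07 replicate 3. Of its 13 protein-coding genes, 12 lay above 0 in KCC-07 minus control with a median log2 difference of 0.17, and 0 passed the test in edgeR or DESeq2, with 0 at an unadjusted p under 0.05. Without KCC-07 replicate 3, 12 of the 13 lay below 0 with a median of −0.18, and mt-Rnr1 and mt-Rnr2 were at −0.04 and −0.18. mt-Co1, a core subunit of cytochrome c oxidase, had 6179, 5080 and 17460 CPM in KCC-07 cells, against 4746, 5166 and 9638 CPM in control cells, with replicate 3 highest in each group. The rRNAs mt-Rnr1 and mt-Rnr2 are poorly captured in polyadenylated RNA. mt-Rnr2 had 518, 441 and 1574 CPM in KCC-07 cells, against 480, 318 and 824 CPM in control cells, a log2 difference of 0.64 (SE 0.444) that did not pass the test. With the block, 1 of the protein-coding genes and mt-Rnr2 rose, against 12.8% of tested genes.

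Cytosolic ribosomal protein genes and nuclear genes of the respiratory chain and ATP synthase stood lower as well. Of 87 cytosolic ribosomal protein genes 82 passed the filter, and all 82 lay below 0, with a median of −0.34 and 3 falls. Of 86 nuclear respiratory chain and ATP synthase genes 78 passed it, 74 lay below 0, and the median was −0.23 with 3 falls. With the block 55 and 24 of them fell, against 9% of tested genes, and in DESeq2 27 and 19, against 5.24%. With the trends on length, GC content and level removed, the medians were −0.12 and −0.10, against −0.19 for the members and −0.03 for all tested genes. Whether these lists differ from the members was not tested.

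**Figure D5:**
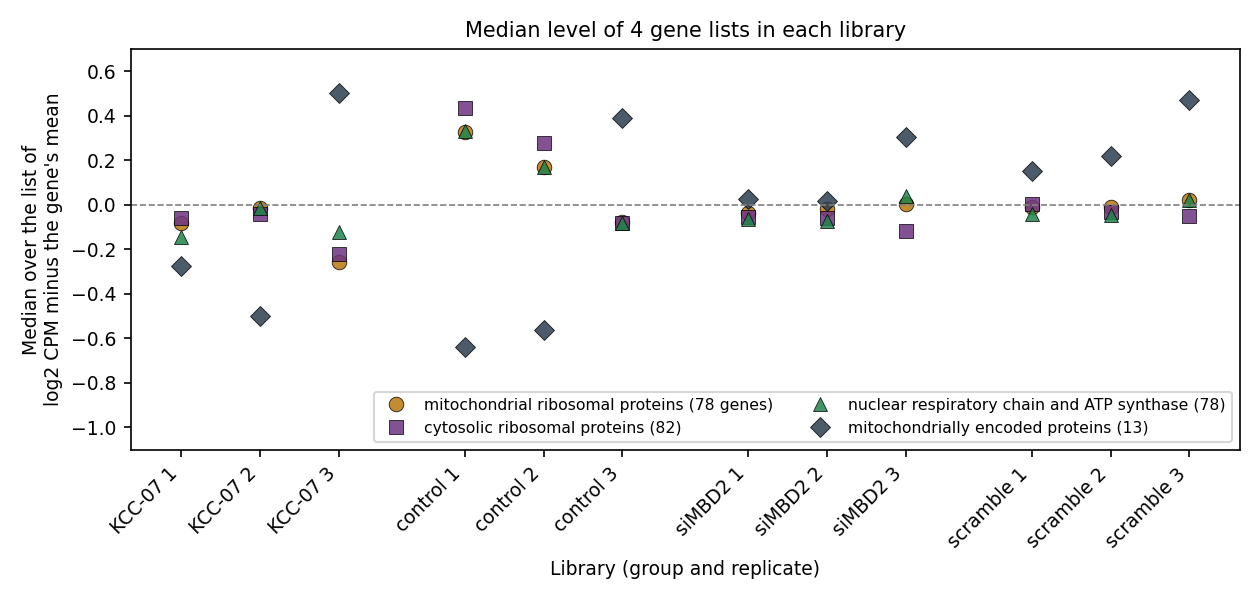
Median over each of 4 gene lists of log2 CPM minus the gene's mean over 12 libraries (vertical axis), by library (horizontal axis). The medians of the mitochondrial ribosomal, cytosolic ribosomal and nuclear respiratory chain lists lie at 0.33, 0.44 and 0.33 in control replicate 1, at −0.08, −0.06 and −0.14 in KCC-07 replicate 1, and between −0.12 and 0.04 in the siRNA libraries, while the mitochondrially encoded list is highest in replicate 3 of each group.

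Among regulators of these genes, the coactivator Ppargc1a had 8.87, 12.2 and 28.3 CPM in KCC-07 cells, against 6.24, 6.30 and 4.90 CPM in control cells, a log2 fold change of 1.501 (SE 0.403) that missed the threshold (edgeR adjusted p = 0.0512) and passed it with the block and in DESeq2. Esrra, a nuclear receptor that works with it, had 29.7, 33.5 and 47.0 CPM in KCC-07 cells, against 10.7, 25.4 and 29.4 CPM in control cells (edgeR adjusted p = 0.136), and rose with the block alone. Nrf1 had 45.2, 45.6 and 38.3 CPM in KCC-07 cells, against 50.5, 51.5 and 50.5 CPM in control cells, and fell with the block alone. Of 10 such regulators 0 passed in edgeR's test, and DESeq2 gave 1. At an unadjusted p under 0.05 there were 3, against 25.1% of tested genes. With the block, 2 rose and 1 fell, against 12.8% and 9% of tested genes.

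Of 10 mitochondrial chaperones and proteases 0 passed in edgeR's test or in DESeq2. An unadjusted p under 0.05 was found for 2, against 25.1% of tested genes. Clpp, a matrix protease, had 37.2, 39.4 and 35.2 CPM in KCC-07 cells, against 53.7, 46.2 and 36.7 CPM in control cells. The chaperonin Hspd1 had 855, 853 and 729 CPM in KCC-07 cells, against 821, 884 and 807 CPM in control cells, and its groups overlapped. Afg3l2, a protease of the inner membrane, had 122.3, 130.6 and 145.5 CPM in KCC-07 cells, against 98.5, 117.6 and 122.4 CPM in control cells, and was the only gene of this list to rise with the block.

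With Mbd2 knocked down, the mitochondrial ribosomal protein genes stayed near their level in scramble cells. The median log2 fold change of siMBD2 minus scramble was −0.01, with 43 of 78 below 0, and the range was −0.53 to 0.32. In edgeR's test 0 members passed, as in DESeq2 and with the block, and 4 had an unadjusted p under 0.05, against 5.26% of tested genes. The background was as low, with 0.0402% of tested genes falling and 0 rising (0.328% and 0.422% with the block), and 0.562% changing in DESeq2. Every siMBD2 library lay below every scramble library in 9 members, or 11.5%, against 11.6% of all tested genes, and above in 8, or 10.3%, against 10.3%. By replicate pair the medians were −0.02, 0.00 and 0.01.

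Mrps36, the dehydrogenase subunit, stood apart among the members in this comparison (ENSMUSG00000061474, chromosome 13, 100735955 to 100744659). It had 14.8, 14.7 and 13.4 CPM in siMBD2 cells, against 21.2, 19.2 and 21.6 CPM in scramble cells, and all 3 siMBD2 libraries were the lowest of the series. The log2 fold change was −0.53 (SE 0.145) and did not pass the test over all genes (edgeR adjusted p = 0.455). In KCC-07 cells it had 20.4, 21.5 and 18.0 CPM, against 27.5, 24.95 and 18.4 CPM in control cells.

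The next most negative values were those of Mrpl41, given above, Mrps23, Mrpl12 and Mrpl18. Mrps23, a mitochondria-specific small subunit protein, had 36.7, 35.1 and 33.6 CPM in siMBD2 cells, against 42.0, 39.8 and 41.4 CPM in scramble cells. Mrpl12, which is also known to bind the mitochondrial RNA polymerase, had 200.3, 201.9 and 187.8 CPM in siMBD2 cells, against 224.3, 222.9 and 216.8 CPM in scramble cells, and 167.6, 189.1 and 171.8 CPM in KCC-07 cells, against 215.0, 222.3 and 190.0 CPM in control cells. Neither pair of groups overlapped. Neither difference passed edgeR's test, and with the block that of KCC-07 did (adjusted p = 0.0340).

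The most positive values were those of Mrpl22, Mrpl53, Mrps16, Mrpl57 and Mrpl39, from 0.32 to 0.12. Mrpl22, which lines the exit tunnel, had 48.8, 45.1 and 48.4 CPM in siMBD2 cells, against 37.9, 38.4 and 38.1 CPM in scramble cells, with a near-identical copy elsewhere and edgeR adjusted p = 0.866. Mrpl53, a mitochondria-specific protein, had 21.2, 23.2 and 24.4 CPM in siMBD2 cells, against 17.8, 19.0 and 21.0 CPM in scramble cells. When only these 6 libraries were fitted, 1 member rose and 1 fell, against 0.433% and 0.823% of tested genes. With the block added, 4 rose and 4 fell, against 9.6% and 10.2%. In the lists of other subunits, assembly factors, translation factors, synthetases, mitochondrial DNA expression, mitochondrially encoded proteins, regulators, and chaperones and proteases, 0 genes passed in this comparison in edgeR's test, with or without the block, and in DESeq2. At an unadjusted p under 0.05 there was 1 assembly factor and 1 synthetase, against 5.26% of tested genes. The 13 mitochondrially encoded proteins had a median log2 difference of −0.15.

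The compound's effect minus the knockdown's effect had a median of −0.27 over the members, with 69 of 78 below 0. In edgeR's test of this difference 0 members passed, 15 had an unadjusted p under 0.05, against 14.6% of tested genes, and DESeq2 gave 1, against 1.43%, while 0.174% of tested genes were lower in this sense and 0.482% higher. The smallest adjusted p was that of Mrpl51, 0.0727 in edgeR's test, with a difference of −0.50 (SE 0.112). With the replicate block 5 members passed, all of the large subunit and all lower (Mrpl17, Mrpl22, Mrpl51, Mrpl52 and Mrpl58), against 2.24% of tested genes lower and 4.65% higher. Mrpl17, which has a bacterial counterpart, had 65.9, 66.4 and 48.4 CPM in KCC-07 cells, against 91.0, 81.2 and 62.2 CPM in control cells. In siMBD2 cells it had 73.1, 70.0 and 72.5 CPM, against 68.5, 64.5 and 67.8 CPM in scramble cells, so the differences ran in opposite directions. Without replicate 3 of every group 10 members passed, against 3.8% of tested genes lower, and without control replicate 3 alone 2 did, against 0.577%.

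Scramble cells were also compared with control cells, and this comparison shares the control libraries with that of KCC-07. The members had a median log2 fold change of −0.17, with 65 of 78 below 0, and 2 fell, Mrpl33 and Mrps16, against 4.08% of tested genes that fell and 4.71% that rose. With the block the same 2 fell, against 6.42% that fell and 7.39% that rose. DESeq2 gave 5, against 7.14% of tested genes, and the count was 0 with no filter on low counts, against 1.86%. Every scramble library lay below every control library in 16 members, or 20.5%, against 16.8% of tested genes, and above in 0, against 16.4%. Mrpl33, a small protein of the large subunit, had 26.9, 25.9 and 29.8 CPM in scramble cells, against 37.3, 32.7 and 34.2 CPM in control cells (log2 fold change −0.34, SE 0.093, edgeR adjusted p = 0.0463). In KCC-07 cells it had 33.4, 34.3 and 36.3 CPM, within the control range. Mrps16, a small subunit protein with a bacterial counterpart, had 18.1, 17.0 and 17.4 CPM in scramble cells, against 30.6, 26.1 and 20.8 CPM in control cells (log2 fold change −0.56, SE 0.157, edgeR adjusted p = 0.0466). Both calls ended without any one scramble library, without control replicate 1 or 2, and when only the 6 libraries of this comparison were fitted. Without control replicate 3, 18 members fell, against 9.49% of tested genes.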

How the data were processed

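Polyadenylated RNA of 12 libraries was sequenced. The authors deposited whole-number counts per gene, with no normalization, per the file headers and values. DRAGEN, mm10 (GRCm38.p6) and DESeq2 1.44.0 are named in the submitters' processing notes, without roles; aligner settings, annotation and strand setting are not given in the sources used here. Total counts were 25831299 to 33956792 per library.

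Counts were filtered with filterByExpr (minimum count 10, minimum total 15), TMM-scaled and tested with glmQLFit and glmQLFTest (edgeR 4.0.16, R 4.3.3), 1 mean per group, 8 residual degrees of freedom, with Benjamini-Hochberg adjustment over 14935 genes and a threshold of 0.05. Each standard error is the size of the log2 fold change over the root of its F. For each gene the 4 groups shared 1 estimate of the spread, so each p-value draws on all 12 libraries. The members varied more within the KCC-07 and control groups (median SD 0.142 and 0.227 in log2 CPM) than within siMBD2 and scramble (0.0723 and 0.0654). Levels are TMM-scaled CPM, and log2 CPM in list medians used a prior count of 2. Alternatives included DESeq2 1.42.0, other filters and scaling, the block, subsets of libraries and removal of smooth trends with mgcv 1.9.3. The fit was tested on simulated data.

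The labels' batch tag names biological replicates 1, 2 and 3, and so pairs libraries within the drug arm and within the siRNA arm. Replicate 3 of KCC-07 and of control has the number 4 in its library name, while replicate 3 of siMBD2 and of scramble has 3. Across the arms the shared block therefore follows the tag and not the library names. Correlations between same-numbered libraries, as deviations from their group means, were 0.27, 0.28 and 0.48 (KCC-07 with control) and 0.09, 0.15 and 0.42 (siMBD2 with scramble). Replicates 1 and 2 were not told apart by number. KCC-07 replicate 2 with control replicate 1 gave 0.30, and KCC-07 replicate 1 with control replicate 2 gave 0.17. For siMBD2 with scramble these values were 0.21 and 0.18. Within arms, replicate 3 with replicate 1 or 2 gave −0.42 to −0.23. The block left 4 residual degrees of freedom within arms and 6 where shared (scramble minus control, r = 0.07, 0.02 and 0.13).

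Gene positions, lengths and overlaps are from GENCODE on GRCm38.p6, which held 54587 of 55335 identifiers, and near-identical copies are at 95% identity over 50% of the transcript. Named genes are Mbd2, members past the threshold, the 5 most positive and 5 most negative members of each main comparison, the 3 highest and 3 lowest per kb, members chosen for their known place, and up to 3 genes of each other list with the smallest adjusted p per main comparison. Mrpl16, Mrpl17, Mrps2, Mrps25, Mrps28 and the other small subunit genes that fell only with the block were named after their values were seen. The members and lists were chosen with earlier results of these data known. One gene that this rule names is not reported here.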

Additional observations from a re-analysis of the deposited data

Results flagged for a closer look

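Mbd2 itself responded differently to the compound and to the siRNA. It had 75.1, 72.8 and 77.1 CPM in KCC-07 cells, against 72.9, 75.9 and 76.5 CPM in control cells, and 35.7, 34.7 and 30.6 CPM in siMBD2 cells, against 75.8, 83.2 and 72.5 CPM in scramble cells. The KCC-07 effect minus the siMBD2 effect was 1.194 on the log2 scale (SE 0.121, edgeR adjusted p = 0.00539). Mbd2 is the target of the siRNA, so its difference is no measure for other genes. In the same test 0 mitochondrial ribosomal protein genes passed the threshold.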

How the results depend on the processing

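The median log2 fold change of the members kept its sign in every alternative for KCC-07 minus control (−0.36 to −0.19), for the difference of the effects (−0.35 to −0.17) and for scramble minus control (−0.27 to −0.07). The counts of members past the threshold depended on the setting, and the cause was not tested. For KCC-07 minus control (5) the count was 35 with the replicate block, 0 when only its 6 libraries were fitted, blocked or not, 10 with DESeq2, 29 without replicate 3 of both groups, 37 without replicate 3 of every group, and 2 to 29 with any 1 library left out. For siMBD2 minus scramble (0) it was 2 and 8 when only its 6 libraries were fitted, without and with the block. For the difference of the effects (0) it was 5 with the block, 1 with DESeq2, 10 without replicate 3 of every group and 0 to 2 with any 1 library left out. For scramble minus control (2) it was 0 without a filter and when only its 6 libraries were fitted, blocked or not, 5 with DESeq2, 38 without replicate 3 of every group and 0 to 18 with any 1 library left out. The block changed no other count of members. For the counts of 37 and 38 the share of tested genes is not given here, so they are not set against a background. The small subunit median of siMBD2 minus scramble ran from −0.0334 to −0.00417 with any 1 library left out.

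Some log2 fold changes that did not pass the test turned in sign. Mrps12 with KCC-07 was −0.00498 with the block and −0.00760 with the block in 6 libraries. Without replicate 3 of every group, and of KCC-07 and control alone, Mrps10 was −0.254 and −0.253, mt-Nd6 was −0.0851 and −0.0858 and mt-Co3 −0.0575 and −0.0569 with KCC-07, and without replicate 3 of every group Col1a1 was 0.0496 and Cd68 −0.0543 with siMBD2. With any 1 library left out, the KCC-07 values ran from −0.17 to 0.13 for Mrps10, −0.21 to 0.30 for Mrps12, −0.19 to 0.00631 for Mrps18b, −0.33 to 0.71 for Pecam1, −0.21 to 0.95 for mt-Co1, −0.18 to 0.44 for mt-Co3, −0.39 to 0.93 for mt-Nd6, −0.0432 to 1.13 for mt-Rnr1 and −0.18 to 1.08 for mt-Rnr2. The siMBD2 values ran from −0.0688 to 0.23 for Cd68, −0.0830 to 0.0162 for Col1a1, −0.0269 to 0.0749 for Dap3, −0.00333 to 0.10 for Epcam, −0.22 to 0.40 for Ppargc1a, −0.24 to 0.11 for Ppargc1b, −0.0837 to 0.0173 for Ptcd3 and −0.29 to 0.0185 for mt-Rnr2. Summed levels moved by more than the spread between replicates in 7 cases. Most of these came from assigning subunits by structure, which sums other genes, for example to 1001 CPM for the small subunit in KCC-07 cells. The rest were in scramble cells per raw library total, for example 2116 CPM for the large subunit.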
